A study of Homo sapiens with 14 samples.

Results

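In T47D breast cancer cells that had received vehicle and no hormone, 38933 regions carried the progesterone receptor (PR) and 29161 carried POLR3A, the catalytic core subunit of RNA polymerase III (Pol III), on chromosomes 1 to 22 and X. A PR and a POLR3A region were called joint where they overlapped by 1 bp or more, and otherwise PR alone or POLR3A alone. By this rule 9411 POLR3A regions (32.3% of the POLR3A list) and 9433 PR regions (24.2% of the PR list) were joint, and they merged into 9102 joint loci among 58352 loci in all. The remaining 29500 PR regions and 19750 POLR3A regions stood alone. The 4 deposited peak lists hold 230789 rows.

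T47D is an established line that the labels describe as an ER+PR+ breast cancer. For 1 h the cells received either ethanol as vehicle or the hormone progesterone (P4). Precipitation used the PR antibody Ab-8 or an antibody to POLR3A. The study has 14 libraries: for each antibody and treatment 3 replicates, plus 1 pooled input per treatment. Each antibody and treatment came as 1 peak list, so no value of a single replicate was seen, and nothing below has a test over replicates. Intervals in parentheses are 95% Wilson intervals that cover counting error over regions only, and neighbouring regions are not independent. The data come from 1 cell line, the sequencing depth behind the lists is unknown, and chromatin occupancy was measured, not RNA. The regions therefore do not check the identity of the cells, and 7 of 12 luminal breast marker genes had a PR region and 5 of 12 a POLR3A region within 1 kb of a start, against 21.2% and 29.3% of all coding genes.

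PR is a nuclear receptor that binds DNA when progesterone is present, mostly at response elements built from inverted copies of a short hexamer. Without hormone much of the receptor is held by chaperones, and part of it is found on chromatin. Pol III makes tRNA, 5S ribosomal RNA, U6 RNA and other short RNAs. At tRNA genes the promoter lies inside the gene, as an A box and a B box that the factor TFIIIC reads.

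Of 14 tRNA genes whose sequence was at hand, 2 were joint, 11 had POLR3A alone and 1 had neither. The 6 genes printed here are shown to place the B-box core in both classes, and because genes of identical sequence differed in their POLR3A region. All 14 genes held that core, the one with neither region included, so it does not tell the classes apart. Sequences are read 5′ to 3′ from RefSeq promoter windows of GRCh38.p14, on the strand that holds the B-box core GTTCNANNC, which is in capitals. The first pair was joint and the next 4 had POLR3A alone.
TRR-ACG2-1, chr3:45688999-45689071, minus strand: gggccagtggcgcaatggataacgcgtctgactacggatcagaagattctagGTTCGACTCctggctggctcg
TRI-TAT2-2, chr6:27020346-27020439, plus strand: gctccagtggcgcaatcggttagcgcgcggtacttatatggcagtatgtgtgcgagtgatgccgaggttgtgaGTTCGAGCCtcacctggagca
TRT-TGT6-1, chr5:181191687-181191758, minus strand: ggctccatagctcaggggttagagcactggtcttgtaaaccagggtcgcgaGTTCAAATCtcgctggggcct
TRA-AGC2-2, chr6:28863685-28863756, minus strand: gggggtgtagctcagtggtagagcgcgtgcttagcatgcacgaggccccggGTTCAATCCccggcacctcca
TRP-TGG3-2, chr14:20684016-20684087, plus strand: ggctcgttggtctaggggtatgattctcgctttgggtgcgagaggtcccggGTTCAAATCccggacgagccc
TRP-TGG3-5, chr16:3188094-3188165, plus strand: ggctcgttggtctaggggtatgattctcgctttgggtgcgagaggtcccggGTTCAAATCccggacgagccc

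The −log10 q is the significance that the authors' peak caller gave each region, and it ranks regions within a list only. TRR-ACG2-1, an arginine tRNA gene, had a POLR3A −log10 q of 565.9 and a PR −log10 q of 3.59. Its PR summit lay 238 bp from the middle of the gene and its POLR3A summit 20 bp from it. TRI-TAT2-2, an isoleucine tRNA gene with an intron, had a POLR3A −log10 q of 366.2 and a PR −log10 q of 3.81, with the PR summit 19.5 bp from the middle. The threonine gene TRT-TGT6-1 (566.3) and the alanine gene TRA-AGC2-2 (550.6) had POLR3A values like that of TRR-ACG2-1 and no PR region. The proline genes TRP-TGG3-2 and TRP-TGG3-5 have the same 72 bases, but their POLR3A −log10 q was 396.0 and 5.63.

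Coding promoters with a joint region are shown next to the promoter of ANO6, which had the strongest PR-alone region at a coding start among those named. The windows run from 250 bases before to 50 after the start. Capitals mark ACANNNTGT, the core of a hormone response element (it reads the same on both strands), or the hexamer TGTTCT on either strand. The last line is ANO6.
SMARCD2, chr17:63838679-63838978, minus strand: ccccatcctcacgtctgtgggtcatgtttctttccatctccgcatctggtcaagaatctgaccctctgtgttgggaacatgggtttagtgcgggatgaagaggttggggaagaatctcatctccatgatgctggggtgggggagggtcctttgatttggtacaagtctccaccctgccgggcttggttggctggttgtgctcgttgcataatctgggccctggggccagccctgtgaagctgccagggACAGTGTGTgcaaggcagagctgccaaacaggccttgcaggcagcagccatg
NACA, chr12:56725250-56725549, minus strand: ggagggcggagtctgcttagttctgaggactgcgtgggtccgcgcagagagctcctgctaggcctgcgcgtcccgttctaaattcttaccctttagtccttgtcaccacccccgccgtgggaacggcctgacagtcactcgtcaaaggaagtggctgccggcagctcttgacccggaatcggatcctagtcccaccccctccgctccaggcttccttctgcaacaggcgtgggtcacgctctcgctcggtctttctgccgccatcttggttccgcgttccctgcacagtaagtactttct
TIPARP, chr3:156674340-156674639, plus strand: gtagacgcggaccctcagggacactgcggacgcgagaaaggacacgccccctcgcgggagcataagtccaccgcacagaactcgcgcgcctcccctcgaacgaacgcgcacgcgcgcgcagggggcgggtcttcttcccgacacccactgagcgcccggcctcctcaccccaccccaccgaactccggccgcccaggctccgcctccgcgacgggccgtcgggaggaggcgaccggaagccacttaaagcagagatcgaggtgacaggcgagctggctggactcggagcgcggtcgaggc
PRLR, chr5:35230438-35230737, minus strand: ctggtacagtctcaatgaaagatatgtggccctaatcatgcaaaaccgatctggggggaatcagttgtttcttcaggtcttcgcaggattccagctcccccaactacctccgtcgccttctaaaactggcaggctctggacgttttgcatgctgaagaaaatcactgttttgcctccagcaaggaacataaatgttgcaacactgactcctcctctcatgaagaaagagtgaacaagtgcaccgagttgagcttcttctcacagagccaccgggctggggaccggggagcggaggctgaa
ANO6, chr12:45292440-45292739, plus strand: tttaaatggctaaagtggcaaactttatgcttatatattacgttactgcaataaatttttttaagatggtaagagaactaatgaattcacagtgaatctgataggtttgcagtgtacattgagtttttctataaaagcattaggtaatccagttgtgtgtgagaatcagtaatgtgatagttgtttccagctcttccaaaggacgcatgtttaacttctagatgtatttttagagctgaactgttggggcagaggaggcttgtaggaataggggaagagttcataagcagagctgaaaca

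SMARCD2 codes for a subunit of SWI/SNF chromatin remodelers, and in this window the PR summit lay 5 bases before the start, with a PR −log10 q of 189.3. The POLR3A summit lay 48 bases after the start, with a −log10 q of 15. NACA, which codes for a subunit of the complex that meets nascent chains at the ribosome, had a PR −log10 q of 235.3 with the summit 187 bases before the start. Its POLR3A −log10 q was 14.9, with the summit 116 bases after the start. TIPARP, a PR target that codes for an ADP-ribosyltransferase, had a PR −log10 q of 168.2 and a POLR3A −log10 q of 6.83, with summits 375 and 267 bases before the start, just outside the window. PRLR, the prolactin receptor gene, had 42.9 and 6.47, with its PR summit 101 bases before and its POLR3A summit 108 bases after the start. ANO6, which codes for a phospholipid scramblase, had a PR −log10 q of 404.3 and no overlapping POLR3A region, with the PR summit 240 bases after the start, so that the window holds the edge of the region and not its summit. Of these 5 windows, SMARCD2 alone held either motif. Other SMARCD2 windows reached by both lists, chr17:63842636-63842935 and chr17:63842417-63842716, held neither.

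In a joint pair the overlap had a median of 235 bp, or 98.5% of the shorter region. Overlaps under 50 bp made up 3.76% of the 9742 pairs. Just outside the rule, 956 PR-alone regions (3.24%) and 999 POLR3A-alone regions (5.06%) had a summit of the other list within 500 bp without overlap. Joint regions were wider than single ones, with a median of 340 bp against 279 bp for PR and 334 bp against 262 bp for POLR3A. The part of width in the overlap was not tested. The shared bases came to 2.77 Mb, which is 20.1% of the length under PR regions and 27.3% of that under POLR3A regions. With an overlap of at least 50% of both regions the joint shares were 18.8% of POLR3A and 14.0% of PR regions, and with summits within 100 bp 17.8% and 13.3%. With a −log10 q of at least 10 in both lists they were 47.6% and 10.02%.

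A sizeable part of the overlap lay in sequence without genes. On each chromosome the longest stretch with no annotated gene was taken, which on most chromosomes holds the centromere, where repeats make reads hard to place. This split was chosen after the data were seen. The 23 stretches covered 170.7 Mb and held 1888 joint POLR3A regions, or 20.1% of all joint ones, against 3.65% of the POLR3A-alone and 7.95% of the PR-alone regions. Inside them 72.4% (70.6 to 74.1) of the POLR3A regions and 44.6% (43.2 to 46.1) of the PR regions were joint. Elsewhere these shares were 28.3% (27.8 to 28.9) and 21.7% (21.3 to 22.2). The stretch of chromosome 1 (chr1:121571889-143299517) had 327 joint among 359 POLR3A regions, and that of chromosome 11 (chr11:50420632-54591479) had 274 among 423. Of the 1208 POLR3A regions whose joint pair had a −log10 q of at least 10 in both lists, 775 (64.2%) lay in these stretches. Whether repeats or mapping set these counts was not tested, so the main results are also given without the stretches.

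POLR3A regions with a higher −log10 q more often overlapped a PR region, up to the top percentile. The joint share was 17.3% (16.0 to 18.7) in the lowest 10% of the POLR3A list by −log10 q and 71.7% (70.1 to 73.4) in the highest. Within the top 10% the order broke: 86.2% (84.1 to 88.0) were joint between percentiles 95 and 99, but 39.4% (34.0 to 45.1) in the top percentile. That top percentile held 232 regions at tRNA or other Pol III genes among 292, and 67 of these 232 were joint. Without such genes and without the gene-free stretches, 77.4% (64.5 to 86.5) of the top percentile and 82.1% (78.8 to 85.0) of percentiles 95 to 99 were joint. The lowest 10% then stood at 16.7% (15.4 to 18.1).

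The PR list gave another picture. Its joint share stayed between 19.8% and 26.1% in every step of 10 percentiles below the 90th percentile and was 25.8% (23.7 to 28.1) between percentiles 95 and 99. In the top percentile, 246 of 390 PR regions, or 63.1% (58.2 to 67.7), were joint, and none of those regions lay in a gene-free stretch. Without the stretches and without tRNA and other Pol III genes the share was 15.5% (14.4 to 16.8) between percentiles 80 and 90. That was lower than the 25.3% (23.9 to 26.8) between percentiles 40 and 50. The median PR percentile was 52.0 for joint and 49.0 for PR-alone regions, and 46.1 against 49.0 without the stretches, so its direction turned. It turned also by fold enrichment, with median percentiles of 40.1 and 53.3. For POLR3A the medians were 68.3 for joint and 42.8 for POLR3A-alone regions, and 61.8 against 41.9 without the stretches. By fold enrichment they were 54.3 and 48.2, so the difference shrank from 25.5 to 6.05 percentile points. Among all joint pairs the ranks of the 2 scores were weakly related (Spearman's rho 0.27 over 9411 regions, 0.13 without the stretches, a description over regions that share their libraries).

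**Figure D1:**
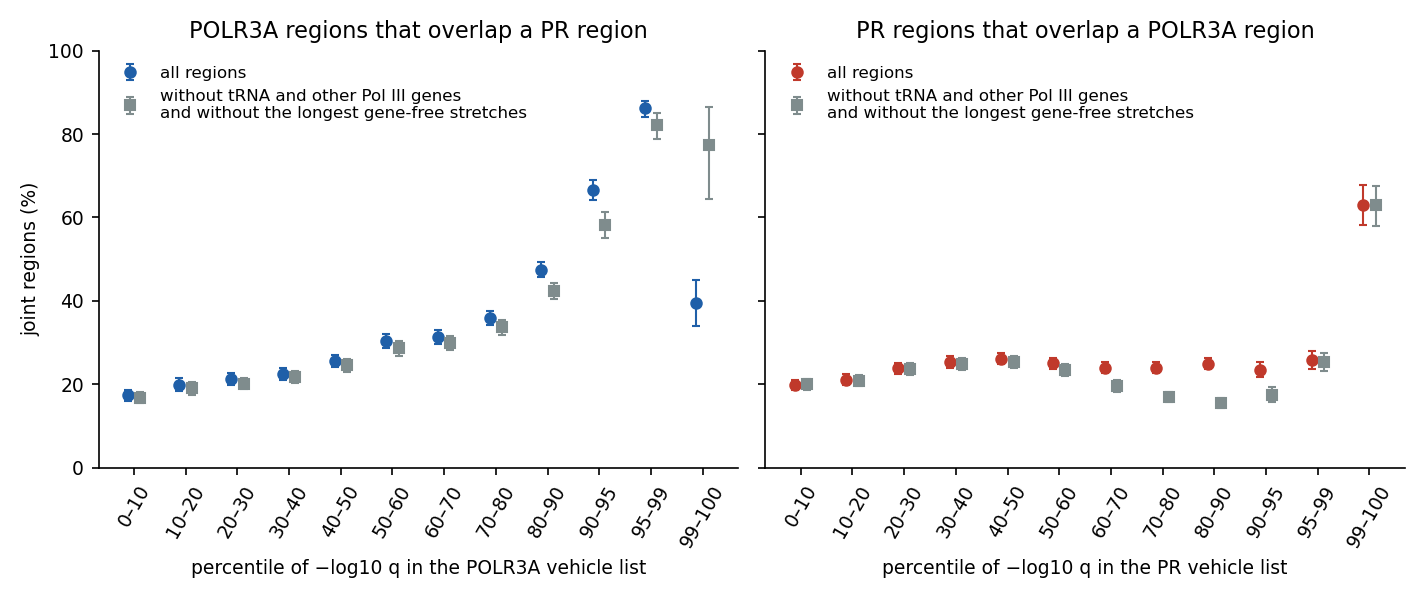
Share of joint regions (%, y axis) by percentile of −log10 q within the POLR3A list (left) and the PR list (right), for all regions (coloured circles) and without tRNA and other Pol III genes and the gene-free stretches (grey squares), with 95% Wilson intervals. The POLR3A share climbs from 17.3% in the lowest 10% to 86.2% at percentiles 95 to 99 and is 39.4% in the top percentile, while the PR share lies between 19.8% and 26.1% below its top percentile, where it is 63.1%, and without the stretches and Pol III genes dips to 15.5% at percentiles 80 to 90.

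Of the 8 joint regions that ranked highest in both lists, 3 were tRNA loci, which are described with the tRNA genes. FKBP5, the PR target that codes for a receptor co-chaperone, had a joint region 1621 bp after its nearest start, with a PR −log10 q of 489.4 (chr6:35725299-35727531) and a POLR3A −log10 q of 25.7, and the summits 23 bp apart. ZBTB16, a zinc finger gene induced by progestins, had one inside the gene with a PR −log10 q of 533.6 (chr11:114179046-114179867), a POLR3A −log10 q of 24.2 and summits 5 bp apart. The highest PR −log10 q of the 8, 540.8, was inside the noncoding gene LOC100507336 on chromosome 6, with a POLR3A −log10 q of 24.6 and summits 31 bp apart. The other two lay in LOC124901138 on chromosome 5 (PR 214.3, POLR3A 47.1, summits 208 bp apart) and 10949 bp from LINC00887 on chromosome 3 (PR 227.2, POLR3A 25.2, summits 534 bp apart). All 8 overlapped a region of each P4 list.

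At coding starts the highest ranking joint regions beside SMARCD2 and NACA were those of WDR45B, RBBP8NL and ZNF341. WDR45B, an autophagy gene, had PR 370.4 and POLR3A 20.4 on the −log10 q scale, with summits 38 bp apart. RBBP8NL had 142.5 and 13.4 with summits 13 bp apart. ZNF341, a zinc finger transcription factor gene, had 404.7 and 13.2 with summits 36 bp apart, 750 bp after the start. Summits in 4 of these 5 pairs lay within 53 bp of each other, and those of NACA lay 303 bp apart.

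PR could also be strong where POLR3A was not listed. The highest PR-alone regions were inside CORO2B (PR −log10 q 448.5, chr15:68592553-68593010), CCNY (438.3), DNAH5 (408.6) and LINC00272 (394.5), and at ANO6 (404.3). The nearest POLR3A summit was 955 bp away at DNAH5, 3085 bp at ANO6, 3595 bp at CCNY, 14557 bp at CORO2B and 19293 bp at LINC00272. In the P4 lists all 5 had a PR region and those at CORO2B, CCNY and DNAH5 had a POLR3A region too. The 5 highest POLR3A-alone regions were all at tRNA genes, led by TRL-CAG2-1 and TRL-CAG2-2 on chromosome 16 (POLR3A −log10 q 621.0, chr16:57299758-57300818) and TRT-AGT2-1 on chromosome 6 (595.2). TRG-CCC2-1 beside TIA1, TRA-TGC3-1 with TRK-CTT2-2, and TRE-CTC1-7 each had 588.6. A PR summit lay 624 bp away from the TRA-TGC3-1 region, and the other 4 were at least 8429 bp from one.

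Every tRNA gene with a PR region also had a POLR3A region. With 100 bp added on each side, 353 of 429 nuclear tRNA genes (82.3%) were reached by a POLR3A region and 55 (12.8%, 9.98 to 16.3) by a PR region. Of the 76 without POLR3A, 0 had PR, which allows a share of up to 3.95%. Many of these genes lie in clusters and share sequence and regions, so they are not independent. With a −log10 q of at least 5 in both lists 18 genes were joint, and 84 were with 500 bp added on each side in place of 100 bp.

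Joint tRNA genes had high POLR3A scores and mostly low PR scores within each list. Their median POLR3A −log10 q was 543.0, against 252.7 at the 298 genes with POLR3A alone, and their median PR −log10 q was 3.81, with a range of 1.41 to 340.9 and a median PR percentile of 31.2. With the 353 genes ordered by POLR3A −log10 q and parted in 4, PR was at 2 of the lowest 88, 5 of the next 88, 17 of the next 88 and 31 of the highest 89 (34.8%, 25.7 to 45.2). PR was also more frequent near coding starts: 15 of 45 genes within 1 kb (33.3%, 21.4 to 47.9), 15 of 67 at 1 to 10 kb, and 25 of 241 further away (10.4%, 7.13 to 14.9). The PR summit lay a median of 158 bp from the middle of the tRNA gene and the POLR3A summit 16.5 bp.

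The PR regions with the highest scores at tRNA genes were broad or to one side. TRK-TTT3-4, a lysine tRNA gene on chromosome 11, had PR 301.8 and POLR3A 540.5, with the PR summit 749 bp from the middle of the gene and the POLR3A summit 22 bp from it. The phenylalanine gene TRF-GAA1-4 on chromosome 12 had 133.7 and 594.9, with the PR summit 549 bp away. The aspartate gene TRD-GTC2-10 on the same chromosome had 115.2 and 564.6, with the PR summit 152.5 bp away. The tyrosine gene TRY-GTA5-2 and the alanine gene TRA-AGC8-2 share 1 PR region (340.9) and 1 POLR3A region (436.6) beside TRIM55, with summits 1296 bp apart. By amino acid, asparagine had 7 joint genes of 21, lysine 6 of 27 and arginine 6 of 26, while proline had 0 of 20, and these counts are small.

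Other short RNA genes were nearly all in the POLR3A list, and some also had PR. All 17 copies of the 5S ribosomal RNA gene had POLR3A and 6 also had PR, with PR −log10 q of 7.33 or less at the 4 highest (RNA5S4, RNA5S7, RNA5S10 and RNA5S14). The copies lie in 1 array of near-identical repeats, so reads cannot be assigned to one copy with certainty. RN7SL1 and RN7SL2, which make the RNA of the signal recognition particle, had PR 9.06 and 31.4, and the vault RNA gene VTRNA1-2 had 22.3, making 3 of 7 in that group. Among 13 genes with an upstream promoter, which Pol III reads without an internal box, POLR3A was at all 13 and PR at 4: RN7SK (4.15), RNU6-8 (2.43), RNU6ATAC (2.98) and RNY3 (4.92). Small nuclear RNA genes read by polymerase II were also in the POLR3A list, 16 of 17, and 6 of them had PR. RNU2-1 had POLR3A 119.4 and PR 58.1 with summits 6 bp apart, and RNU1-1 had 153.3 and 15.2 with summits 4 bp apart. RNU2-1 and its flanking sequence held 10 joint regions. Whether reads at these genes can be assigned to 1 place was not tested.

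Over all joint regions the POLR3A and the nearest overlapping PR summit lay a median of 81 bp apart (interquartile range 24 to 212), and 55% (54 to 56) were within 100 bp. In the gene-free stretches the median was 19 bp (7 to 46), and elsewhere it was 113 bp (41 to 251). As a scale outside the stretches, the same antibody in vehicle and in P4 gave 32 bp for PR (13 to 84) and 93 bp for POLR3A (33 to 219). Outside the stretches the vehicle pairs were thus spaced wider than PR against itself and nearer to POLR3A against itself. These scales cover all regions found again under P4, not joint ones alone. At joint regions, stretches included, POLR3A against itself gave 62 bp (18 to 181) and PR 38 bp (13 to 136), both below the 81 bp of joint pairs. Inside the stretches the same antibody gave 20 bp for PR (9 to 45) and 17 bp for POLR3A (6 to 42). The 19 bp of joint pairs there was thus like the spacing of either antibody against itself. No test of these differences is possible.

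Spacing differed by place, by rank and by region width, and summits of wide overlapping regions can lie further apart. Over all joint regions the median spacing was 60 bp where the shorter region had up to 250 bp. It was 89, 123 and 114 bp in successively wider classes. Joint POLR3A regions had a median width of 256 bp in the stretches and 360 bp elsewhere. Places and ranks were not matched for width, so whether spacing differs by place or rank at equal width was not tested. At tRNA genes the median was 221 bp (81.5 to 409.8) over 56 regions, at other Pol III genes 200 bp over 14, at coding starts 145 bp (62 to 296) over 1936 and inside coding genes 116 bp (43 to 251) over 2388. For pairs ordered by the lower of their 2 percentiles, outside the stretches, the median was 136 bp below percentile 20, 129.5 bp from 20 to 40, 102 bp from 40 to 60, 68 bp from 60 to 80, 49.5 bp from 80 to 90 and 30.5 bp (11 to 66) in the 120 pairs above 90. PR summits were also denser near POLR3A summits than further off: outside the stretches there were 821 PR summits per kb per 1000 POLR3A regions within 50 bp, 316 at 100 to 200 bp, 132 at 1000 to 2000 bp and 64.3 at 10000 to 20000 bp.

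**Figure D2:**
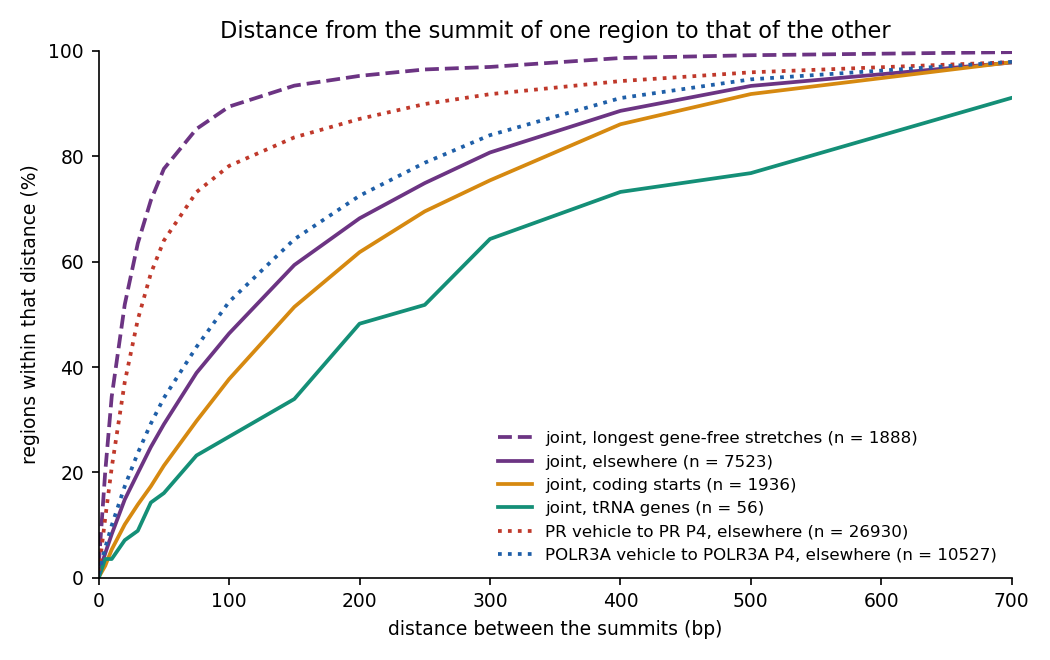
Percentage of regions (y axis) whose summits lie within the distance on the x axis (bp), for joint POLR3A and PR regions in the gene-free stretches, elsewhere, at coding starts and at tRNA genes, with the same antibody in vehicle and P4, outside the stretches, as dotted lines. Joint regions in the stretches have a median of 19 bp and those elsewhere 113 bp, between the 145 bp of coding starts and the 93 bp of POLR3A against itself.

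Over the full lists joint regions were near coding starts more often than PR-alone regions and somewhat less often than POLR3A-alone regions. The summit lay within 1 kb of a coding start in 20.8% (19.96 to 21.6) of joint POLR3A regions, 8.81% (8.49 to 9.14) of PR-alone and 23.1% (22.6 to 23.7) of POLR3A-alone regions. Without the gene-free stretches the shares were 26%, 9.57% and 24%. With a −log10 q of at least 10 in both lists the order of joint and PR-alone regions turned, at 2.21% against 6.37%, and POLR3A-alone regions stood at 22.4%. With joint regions defined by summits within 100 bp the shares were 14.2%, 11.3% and 24.1%. With each region given to 1 class, tRNA and other Pol III genes first, 25.4% of joint regions lay inside coding genes, against 43.9% of PR-alone and 35.2% of POLR3A-alone regions. No PR-alone region was at a tRNA or other Pol III gene (0 of 29500), as against 239 POLR3A-alone regions at tRNA genes. Most tRNA genes (353 of 429) had a POLR3A region, which a PR region within 100 bp of the gene is likely to overlap. The 0 is thus partly set by how the classes were made. Seen from the PR list, 42.7% (41.2 to 44.1) of PR regions at coding starts were joint, 15.4% (14.8 to 16.0) of those inside coding genes and 21.6% (20.9 to 22.4) of those outside genes and stretches.

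**Figure D3:**
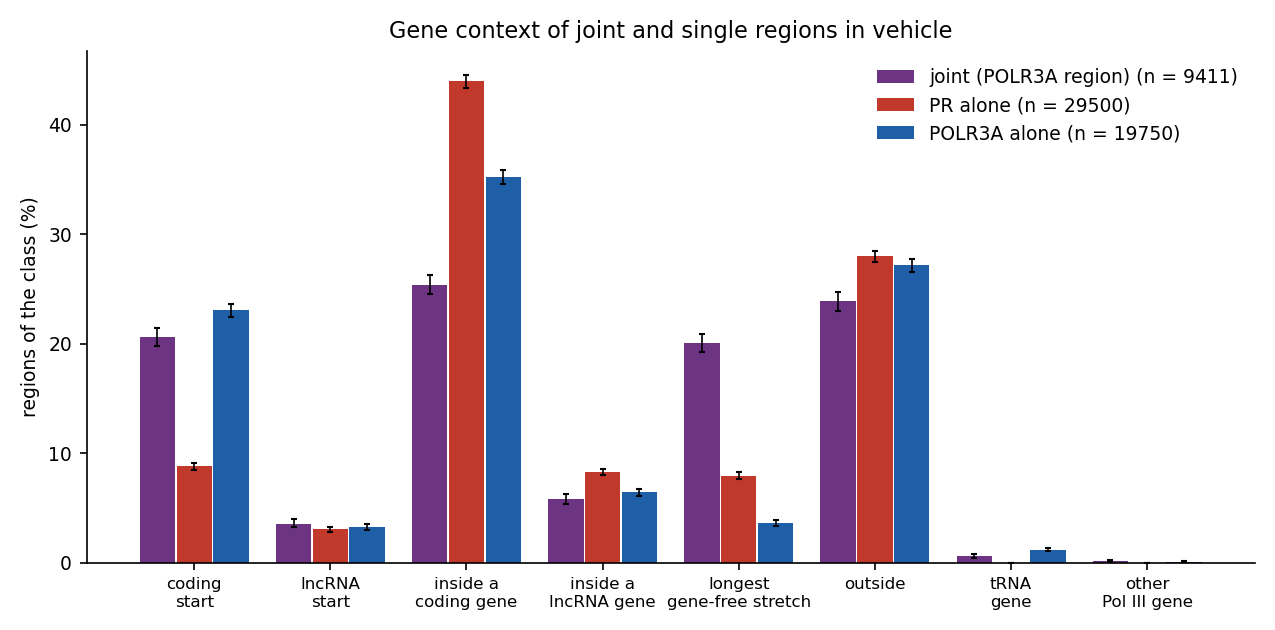
Share of joint POLR3A regions, PR-alone and POLR3A-alone regions (%, y axis) in each gene context (x axis), with 95% Wilson intervals. Joint regions stand out from both single classes in the longest gene-free stretches, at 20.1% against 7.95% and 3.65%, and PR-alone regions inside coding genes, at 43.9%.

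Around starts of known strand POLR3A and PR summits had different places. POLR3A-alone summits had their peak in the first 100 bp after the start (17.3% of those within 1 kb), with a median of 55 bp after it. Joint POLR3A summits had a median of 18 bp after the start and 13.8% in those 100 bp. PR summits of joint regions had 2 humps, with 8.84% at 100 to 200 bp after the start and 7.53% at 300 to 400 bp before it, and a dip to 5.17% in the 100 bp before the start. PR-alone summits were spread out, with 4.03% in the 100 bp before the start and a median 43 bp before it. Of 1364 joint pairs at starts with summits over 25 bp apart, PR was the upstream one in 48.5% (45.9 to 51.2), so neither order was the more frequent beyond counting error.

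**Figure D4:**
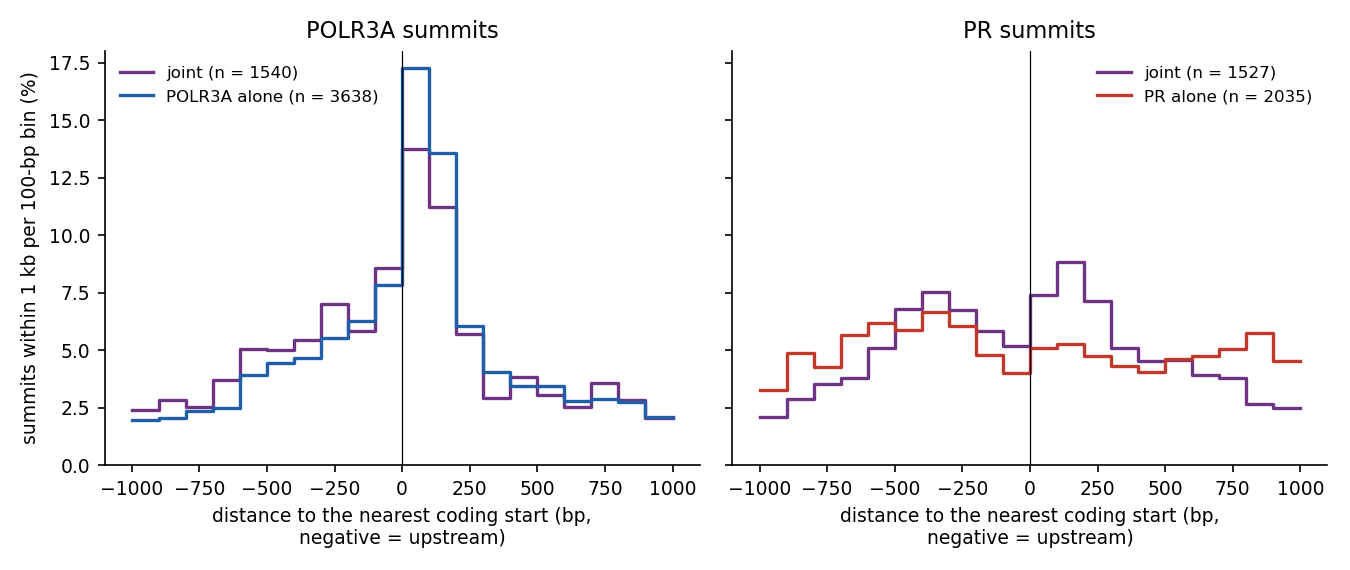
Share of summits within 1 kb of a coding start of known strand (%, y axis) in 100-bp bins by signed distance to the start (bp, x axis, negative upstream), for POLR3A summits (left) and PR summits (right) of joint and single regions. The POLR3A summits crowd into the first 100 bp after the start, at 13.8% of joint and 17.3% of POLR3A-alone summits, and PR-alone summits show no such crowding.

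Over all coding genes, 10.1% had a joint region within 1 kb of a start, 21.2% had a PR region and 29.3% a POLR3A region. Against that background, clustered histone genes, which make the replication-dependent histones, had joint regions at 36 of 69 (52.2%, 40.6 to 63.5). The highest were H2AC19 (POLR3A 28.6, PR 26.5), H2AC18 (27.2, 18.2), H3C14 (18.2, 18.2) and H1-3 (5.63, 68.9), and several of these genes share 1 broad region. Cytosolic ribosomal protein genes had joint regions at 22 of 84 (26.2%, 18.0 to 36.5). RPL24 had POLR3A 7.54 and PR 12.3, and RPL35A had 10.5 and 7.55. Genes for Pol III itself and its factors had them at 8 of 26 (30.8%, 16.5 to 49.99). POLR3B, the second largest subunit, had POLR3A 6.88 and PR 5.85 with summits 9 bp apart, and GTF3C2, a subunit of TFIIIC, had 5.63 and 15.8. The pair at POLR3E had POLR3A 625.0 and PR 4.51 with summits 980 bp apart, and its POLR3A region is the one at the tRNA gene TRL-AAG2-4, 229 bp from the POLR3E start, with the summit 7.5 bp from the middle of that tRNA gene. A POLR3A region was at 52 of 69 histone, 66 of 84 ribosomal protein and 20 of 26 Pol III genes. Among the genes with POLR3A, 36 of 52, 22 of 66 and 8 of 20 were joint, against 1995 of 5810 over all coding genes. What part of the joint counts follows from the POLR3A counts was not tested. All these lists were picked with results of these data known.

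Joint regions at the starts of PR target genes were near the background in number. They were at 3 of 20 (15%, 5.24 to 36), namely FKBP5, PRLR and TIPARP. A PR region was at 8 of 20 and a POLR3A region at 5 of 20. Within 1 kb of a start of FKBP5 the highest PR −log10 q was 23.2, and the joint pair there had a PR −log10 q of 6.57 and a POLR3A −log10 q of 1.83. Counted over the gene and its flanking sequence, 9 of 20 had a joint region, against 23% of all coding genes. PRLR held 11 joint regions in this span, EHF 8, FKBP5 and GREB1 7 each, and ZBTB16 5. Gene length was not matched. Luminal marker genes had joint regions at 4 of 12 (33.3%, 13.8 to 60.9), GATA3 (POLR3A 2.93, PR 8.86), KRT19 (28.7, 2.34), SPDEF (5.03, 3.36) and TFAP2C (4.33, 22.1). Basal, stromal, blood and liver marker genes had joint regions at 0 of 4, 0 of 4, 0 of 4 and 0 of 2. These lists are so short that 0 of 4 allows a share of up to 49% and 0 of 2 up to 65.8%. Their counts cannot be told apart from the luminal one or from the background. FOSL1 was the 1 joint gene of the 7 AP-1 genes.

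**Figure D5:**
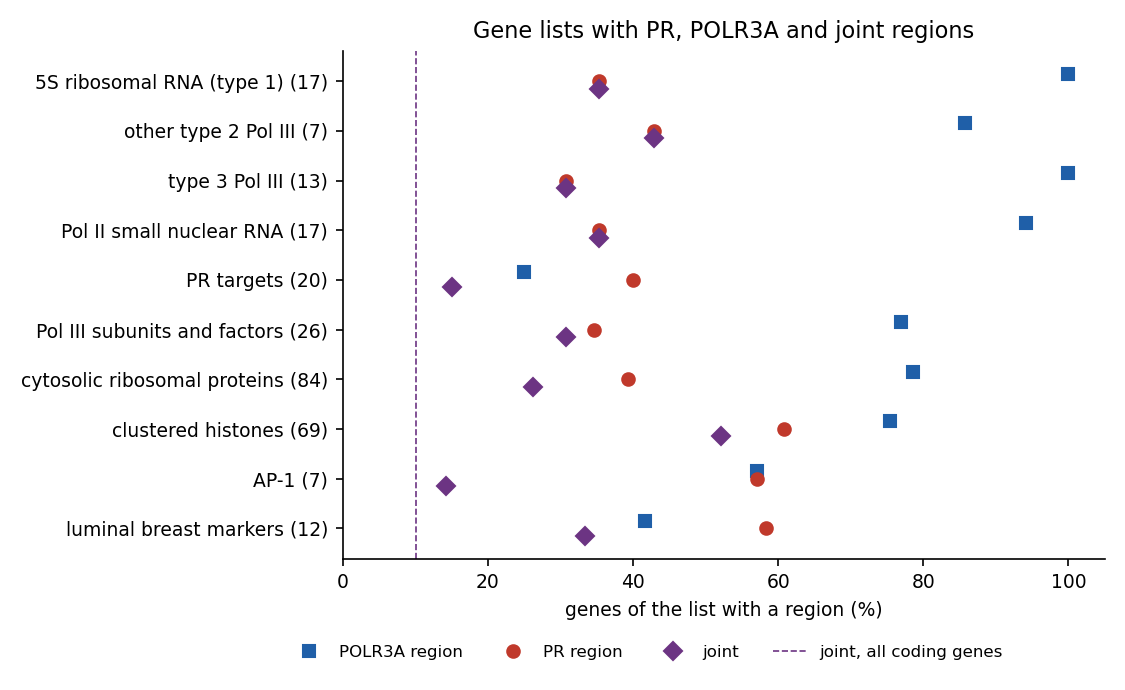
Share of genes (%, x axis) in each list (y axis, number of genes in parentheses) with a POLR3A, a PR or a joint region within 1 kb of a coding start or 100 bp of a short RNA gene; lists under 7 genes are left out, and the dashed line is the 10.1% of all coding genes with a joint region. The 36 of 69 clustered histone genes lie furthest to the right among joint values, and the short RNA lists have POLR3A at nearly every gene.

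Some motifs differed in share between the classes of coding promoters, and others differed little. Windows of 300 bases were used, 853 reached by both lists, 791 by PR alone and 2864 by POLR3A alone among 21980 windows. ACANNNTGT was in 3.99% (2.87 to 5.52) of windows with both, 6.95% (5.38 to 8.94) with PR alone, 1.75% (1.33 to 2.29) with POLR3A alone and 3.98% of all windows. In the central 150 bases it was in 1.88%, 3.16% and 0.733% of the 3 classes. The hexamer TGTTCT, whose first 3 letters can be the last of that core, was in 11.1% (9.20 to 13.4), 16.2% (13.8 to 18.9) and 7.65% (6.73 to 8.68), and in 11.8% of all. The median GC content was 62.3% with both, 60.7% with PR alone and 65.3% with POLR3A alone, and these motifs are rich in A and T. By GC content, the core was in 10% (1.79 to 40.4) of windows with both and 13.9% (7.72 to 23.7) with PR alone below 45% GC. From 45% to 55% GC these shares were 4.51% (2.08 to 9.49) and 11.6% (7.54 to 17.4), from 55% to 65% GC 5.43% (3.58 to 8.15) and 5.16% (3.20 to 8.22), and above that 1.86% (0.854 to 3.99) and 4.08% (2.23 to 7.35). With POLR3A alone the core was in 0 of 38 windows, 4.26%, 2.58% and 0.735% in the same order. The Pol III cores differed little. GGTTCGA of the B box was in 1.29% with both, 1.39% with PR alone, 1.19% with POLR3A alone and 0.951% of all. GGCNNAGTG of the A box was in 6.57%, 5.69%, 6.25% and 5.62%, in that order. CCGGAAG, a core read by ETS factors, was added after the data were seen. It was in 28.8% (25.9 to 32.0) with both, 17.3% (14.8 to 20.1) with PR alone, 23.6% (22.1 to 25.2) with POLR3A alone and 12.7% of all. GC content was not matched for it. Of the other motifs added then, CCAAT was in 34.7%, 38.6%, 37.3% and 34.7%. GGGCGG was in 64.1%, 53.4%, 71.1% and 56.2%, TGANTCA in 3.87%, 5.56%, 2.9% and 6.16%, and TGTTTAC in 1.88%, 2.28%, 2.23% and 2.85%. All motifs were searched on both strands, and a match is a description of letters, not a bound site.

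Overlap with the P4 lists differed between the classes. Of joint POLR3A regions, 62.3% (61.3 to 63.2) overlapped a region of both P4 lists, against 15.6% (15.2 to 16.0) of PR-alone and 18.3% (17.7 to 18.8) of POLR3A-alone regions. With a −log10 q of at least 5 the shares were 64.2%, 6.77% and 14.8%. By definition a single region lacked the other antibody in vehicle and needs a new region of it to be in both lists. The direction of this comparison is thus partly set by how the classes were made. Neither P4 list reached 9.96% of joint, 23.3% of PR-alone and 51.2% of POLR3A-alone regions. POLR3A was listed again at 68.4% of joint and 29.5% of POLR3A-alone regions, and at the weakest and strongest ends of the list by percentile (below 25 and above 75) these shares were 50.5% against 19.3% and 84.2% against 54.6%. PR was listed again at 83.2% of joint and 73.3% of PR-alone regions, but above percentile 75 at 96.9% and 99.2%, so the order turned there. The P4 lists are longer, with 111515 PR and 47904 POLR3A regions, so a share in them is a description.

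Joint regions were unevenly spread. Of 1477 bins of 1 Mb with a joint region, the median held 3, and 39 bins held 25% of them. Most of the densest were without coding genes, such as chr1:124000001-125000000 with 145 joint regions among 155 POLR3A regions. Dense bins with coding genes included chr3:195000001-196000000 (58 joint regions, 8 coding genes) and chr17:43000001-44000000 (56 and 20). The densest of this kind was chr16:85000001-86000000, with 120 joint regions among 226 POLR3A regions and 9 coding genes. In it GSE1, which codes for a coiled-coil protein, held 82 joint regions, followed over all coding genes by KCNMA1, a potassium channel gene, with 22. The NBPF genes NBPF10 and NBPF19, members of a multicopy family with near-identical sequence, held 17 each, and reads there cannot be assigned with certainty. Copy number of these places was not tested.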

How the data were processed

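ChIP-seq of PR and POLR3A in T47D cells was compared as deposited peak lists, 1 per antibody and treatment, with no table of single replicates. Reads were trimmed with cutadapt, aligned with Bowtie2 and peaks called with MACS2 on hg38, per the submitters' processing notes; versions, thresholds and the use of the input are not given in the sources used here, and the input was not used here. The deposited lists give each peak's fold enrichment (a ratio), its −log10 q and a score that the authors' caller set; they are the authors' values and ranked regions within a list only. The smallest deposited −log10 q was 1.31 in the PR list and 1.30 in the POLR3A list.

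Regions on chromosomes 1 to 22 and X were overlapped (1 bp) in Python 3.11.15 with pandas 2.3.3, checked with bedtools 2.31.1 and tested on simulated lists. Gene positions and promoter sequences came from RefSeq GRCh38.p14; where a gene's strand was not at hand, both ends counted as starts. Windows were 100 bp around short RNA genes and 1 kb around starts. Named were the 8 joint regions with the highest lower percentile, the 5 strongest PR-alone and POLR3A-alone regions, the 5 tRNA genes with the strongest PR, the 5 highest joint regions at coding starts and up to 4 joint genes per list; the printed promoters and tRNA genes and the genes with most joint regions were chosen after their values were seen. Members and lists were chosen with earlier results of these data known. Alternatives were stricter q, other overlap rules, equal list lengths, other windows, and, added after seeing the data, leaving out the gene-free stretches and using starts of known strand alone. No column of per-sample values was left unused.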

Additional observations from a re-analysis of the deposited data

Results flagged for a closer look

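Regions outside chromosomes 1 to 22 and X, which the report does not use, also held joint signal. Of 807 such POLR3A regions 475 (58.9%, 55.4 to 62.2) overlapped a PR region, and of 660 such PR regions 491 (74.4%, 70.9 to 77.6) overlapped a POLR3A region. Their summits lay a median of 21 bp apart. They make up 2.69% of the POLR3A list and 1.67% of the PR list.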

How the results depend on the processing

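No paired analysis was possible because each group is 1 list pooled over replicates; for the same reason no replicate could be left out. Of 55 alternative values, 7 were labelled unchanged, 46 moved and 2 reversed. Where nothing else is said the cause was not tested. The label unchanged did not mean the same for all results. Summit spacings with it lay within the interquartile range over regions, so 27 bp with −log10 q of at least 5 counted as unchanged against 81 bp. The tRNA counts of 40 with lists of equal length and 41 with the gene body alone also had this label. Both counts lie below the 95% interval of the main count of 55. With −log10 q of at least 5, 38.9% of POLR3A and 14.6% of PR regions were joint, 18 tRNA genes were joint, and 64.2% of joint, 6.77% of PR-alone and 14.8% of POLR3A-alone regions were in both P4 lists. With at least 10 the joint shares were 47.6% and 10.02%, 9 tRNA genes were joint, the spacing was 14 bp, and 2.21% of joint, 6.37% of PR-alone and 22.4% of POLR3A-alone regions were near coding starts, so the order of joint and PR-alone regions turned. Most of the pairs past that threshold lay in the gene-free stretches. An overlap of 50% of both regions gave joint shares of 18.8% and 14.0%, with joint medians 31.0 (POLR3A) and 7.59 (PR) percentile points above those of single regions. Summits within 100 bp gave 17.8% and 13.3%, with 14.2%, 11.3% and 24.1% near starts. Lists of equal length gave 25.5% and 25.2%. Within 500 bp of a start were 14.2%, 4.51% and 16.6%, within 5 kb 31.7%, 21.9% and 38.2%, and with starts of known strand alone 16.7%, 6.99% and 18.7%. A window of 500 bp at tRNA genes gave 84 joint genes. Ranking by fold enrichment gave a difference of joint minus single medians of 6.05 percentile points for POLR3A and -13.2 for PR, the latter a reversal. Without the gene-free stretches the joint shares were 28.3% and 21.7%, and the differences of medians 19.9 and -2.89 (a reversal). The shares near starts were then 26%, 9.57% and 24%, so the order of joint and POLR3A-alone regions turned. Turns in the order of classes are not among the 2 reversed values, which were judged singly. In both P4 lists were 59.4% of joint and 15% of PR-alone regions. In the central 150 bases ACANNNTGT was in 1.88% of windows with both, 3.16% with PR alone and 0.733% with POLR3A alone; fewer bases were searched. What limits these results is 1 list per group, an unknown depth, and gene starts without a known strand.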
